A study of Homo sapiens with 16 samples.

Results

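The regions described here were 748 genomic sites bound by ERG in Jurkat cells at which GABPα was detected only weakly. ERG sites were built by merging the high confidence ERG peaks of 2 Jurkat replicates wherever they shared at least 1 bp, which gave 2027 sites. High confidence peaks were those that both peak callers of the study, MACS and SWEMBL, reported. An ERG site was placed in the weak class if it overlapped a GABPα MACS peak of either Jurkat replicate but no GABPα high confidence peak of either. The weak class held 36.9% of the ERG sites (95% Wilson interval 34.8 to 39.0%). From the sites of ERG replicate 1 alone, without replicate 2, there were 454 weak sites, or 41.2%, and from those of replicate 2 alone 657, or 36.5%. A further 538 ERG sites (26.5%) overlapped a GABPα high confidence peak and are called strong sites, and 741 (36.6%) overlapped no GABPα MACS peak. Across the whole series the high confidence peaks of all 10 samples merged into 17167 regions.

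Jurkat is a human T cell leukaemia line, and its 4 samples were 2 replicates of GABPα and 2 of ERG chromatin immunoprecipitation followed by sequencing (ChIP-seq). VCaP is a prostate cancer line that carries an ERG gene fusion, and it contributed 1 sample for each of the 2 targets at t0, with vehicle (ethanol) and with 1 nM of the synthetic androgen R1881, the last 2 after 48 h in charcoal-stripped serum. The labels give no treatment for Jurkat cells, and they do not say whether its replicates were separate cultures, although the study's methods speak of biological replicates. For ERG the labels and the study's methods give different antibody catalogue numbers, so which antibody produced the ERG files could not be settled here. According to the file headers, both GABPα samples of Jurkat cells were called against a single input and both ERG samples against another.

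ERG and GABPα belong to the ETS family of transcription factors, which share a DNA-binding domain that recognises a GGAA core. GABPα is the DNA-binding subunit of GABP, works with a β subunit that carries the activation domain, and is best known at promoters of housekeeping and mitochondrial genes. ERG has roles in blood stem cells and the endothelium, and is expressed in some T cell leukaemias. Because family members recognise similar sequences, a site of one is often occupied by another, and the strength of the second factor can then be read at sites defined by the first.

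The weak sites were selected on their GABPα calls, so their GABPα scores are a description. The MACS score is −10 times the log10 of the p-value of a peak, and the lowest score in the files, 50, stands for a p-value of 1e-05. In replicate 1, 591 weak sites had a GABPα peak, with scores from 50.3 to 1544 and a median of 114. In replicate 2, 671 weak sites had one, with scores from 50.2 to 1878 and a median of 107. Both replicates therefore placed the middle of the class at about the same score. The GABPα peaks at strong sites had medians of 346 and 351 in replicates 1 and 2. GABPα MACS peaks anywhere in the genome that held no high confidence piece had medians of 82.8 and 73.4.

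**Figure D1:**
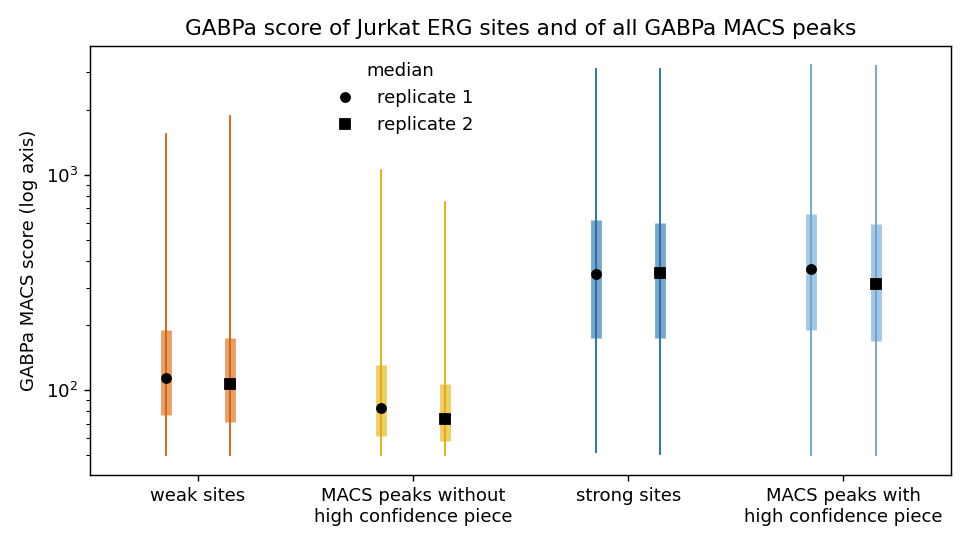
GABPα MACS score (log axis) in each Jurkat replicate at weak and strong ERG sites and over all GABPα MACS peaks without or with a high confidence piece. Symbols are medians, thick bars run between the quartiles and thin lines from lowest to highest, and the weak sites, at medians of 114 and 107, lie between the peaks without a high confidence piece (82.8 and 73.4) and the strong sites (346 and 351).

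The classes overlapped in score. Taking the higher of the replicate scores at each site, the weak sites had a median of 116 and the strong sites 381. However, 42 weak sites (5.61%) scored above the median of the strong sites, and 67 strong sites (12.5%) scored below the median of the weak sites. Near the lower limit, 307 weak sites (41.0%) had a highest score under 100. The weak site with the lowest score, chr2:98646321-98646820 (hg18), had a GABPα peak in replicate 2 alone, with a score of 50.2, and ERG scores of 195 and 173. The strong site with the lowest score, chr16:53102816-53103353, had a GABPα score of 51.7 in replicate 2 alone and ERG scores of 478 and 1144.

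Many weak sites were found in both GABPα samples. A GABPα peak was present in both replicates at 514 weak sites (68.7%, Wilson interval 65.3 to 71.9%), in replicate 1 alone at 77 and in replicate 2 alone at 157. At the 514 sites the rank correlation between the replicate scores was 0.69 (Spearman's rho across sites, which are not independent replicates and share libraries). Of the 748 weak sites, 723 (96.7%) were contained in a GABPα peak. The median length was 290.5 bp for these ERG sites and 882 and 826 bp for their GABPα peaks in replicates 1 and 2. Containment was not compared with that at strong sites. The distance between the centre of the ERG site and that of the GABPα peak had a median of 88 bp in replicate 1 and 85.5 bp in replicate 2, against 96.8 and 87 bp at strong sites.

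At 99 weak sites (13.2%) the overlapping GABPα MACS peak held a high confidence piece elsewhere along its length. These sites are called flanking sites, since they shared a GABPα peak with a high confidence piece. The position of the summit was not used, and some of these GABPα peaks were themselves weak, one of them with a score of 55.45. Their median highest GABPα score was 254, and the next GABPα high confidence interval was a median of 182 bp away. At the other 649 sites the median score was 107 and the median distance to a GABPα high confidence interval 48792 bp. High confidence ERG was found in both replicates at 35.4% of the flanking sites and 43.8% of the others, with Wilson intervals of 26.6 to 45.2% and 40.0 to 47.6%.

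The 5 weak sites named for the highest GABPα scores all belonged to this flanking group, the last of them tied with 3 neighbouring sites in the same GABPα peak and placed first by position. They were chr21:9742732-9743022, chr12:26890238-26890556, chr13:40477594-40477778, chr3:17980553-17981101 and chr10:38855720-38855841, with highest scores of 1878, 1544, 1228, 1025 and 934. The first had GABPα scores of 1052 and 1878 in the 2 replicates but an ERG peak in replicate 1 alone, with a score of 109. It lay in a window of 1 Mb that held 13 ERG sites, and MACS called a peak there in 7 of the 10 samples. The second had GABPα scores of 1544 and 1404 and ERG scores of 176 and 206. The third had ERG scores of 105.5 and 584, and the next 151 and 152. At the site on chromosome 10 the ERG score was 172 in replicate 1 and 3103 in replicate 2. None of the 5 scored above 176 for ERG in replicate 1, whereas replicate 2 ranged from no peak to one of the highest scores of the class.

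The next question was whether ERG itself was stronger or weaker where GABPα was weak. ERG was called with high confidence in both replicates at 319 of the 748 weak sites, or 42.6% (Wilson interval 39.1 to 46.2%), against 38.5% of all ERG sites. The share was 28.6% at sites without GABPα and 46.5% at strong sites. The weak sites exceeded the sites without GABPα by 14.0 percentage points, with a 95% Newcombe interval of 9.19 to 18.8, and the interval left out 0. Against the strong sites the difference was −3.82 points with an interval of −9.31 to 1.67, so the weak and strong classes could not be separated. These intervals treat sites as the sampled units and do not measure the variation between cultures, and none of the 36 differences of shares computed between classes, 7 of them planned, was adjusted for their number.

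Sites without GABPα also came lowest for ERG peaks of any confidence. An ERG MACS peak was present in both replicates at 84.4% of weak sites, 80.9% of strong sites and 65.6% of sites without GABPα, against 76.6% of all ERG sites. The difference between weak sites and sites without GABPα was 18.8 points (interval 14.4 to 23.0). High confidence ERG in replicate 2 alone was found at 39.3% of weak sites, 38.5% of strong sites and 57.1% of sites without GABPα, against 45.6% of all ERG sites, and weak sites differed from those without GABPα by −17.8 points (interval −22.7 to −12.7). Of the 1103 intervals of ERG replicate 1 in the deposited file, 1069 are whole MACS peaks, while all 1801 of replicate 2 are the narrower SWEMBL intervals, and the median site length was 290.5 bp for weak sites, 269.5 bp for strong sites and 184 bp for sites without GABPα. With SWEMBL intervals in both replicates, the excess of weak sites over sites without GABPα was 14.2 points (interval 9.46 to 18.8).

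ERG scores gave a further separation. The ERG score of weak sites ran from 51.0 to 2411 in replicate 1 (n = 659) and from 50.1 to 3103 in replicate 2 (n = 720), with medians of 175 and 271. Strong sites had medians of 175 and 223 and sites without GABPα 123 and 219. The weak sites stood above both other classes in replicate 2, whereas in replicate 1 they stood level with the strong sites. Over all sites the median of the highest ERG score was 245, which by construction left 50.0% of sites above it. Of the weak sites, 58.7% lay above it, compared with 43.2% of sites without GABPα and 47.2% of strong sites. The difference was 15.5 points against sites without GABPα (interval 10.4 to 20.5) and 11.5 points against strong sites (interval 5.95 to 16.9). The excess over strong sites rested on ERG replicate 2, since with the scores of replicate 1 alone it was 0.61 points (interval −5.27 to 6.51) and with those of replicate 2 alone 10.4 points (interval 4.79 to 16.0).

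When the 2027 ERG sites were divided into 5 groups of equal size by their highest ERG score, the weak class grew with the score while the strong class did not. Weak sites were 21.9% of the lowest group, where ERG scores ran from 50.1 to 129.6, and 43.0% of the highest, where they ran from 469 to 3139. The rise was 21.0 points (interval 14.7 to 27.2). Strong sites made up 27.1% of the lowest and 26.7% of the highest group, a difference of −0.43 points (interval −6.51 to 5.66). Sites without GABPα fell by 20.6 points, from 51.0% to 30.4% (interval of the difference −27.1 to −13.9). Most of the change in the weak class lay between the lowest group and the next, at 38.2%, and the top groups, at 44.0% and 43.0%, had overlapping Wilson intervals. The groups were not remade from each ERG replicate. With the scores of replicate 1 alone, the share above the median differed between weak and strong sites by only 0.61 points (interval −5.27 to 6.51).

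**Figure D2:**
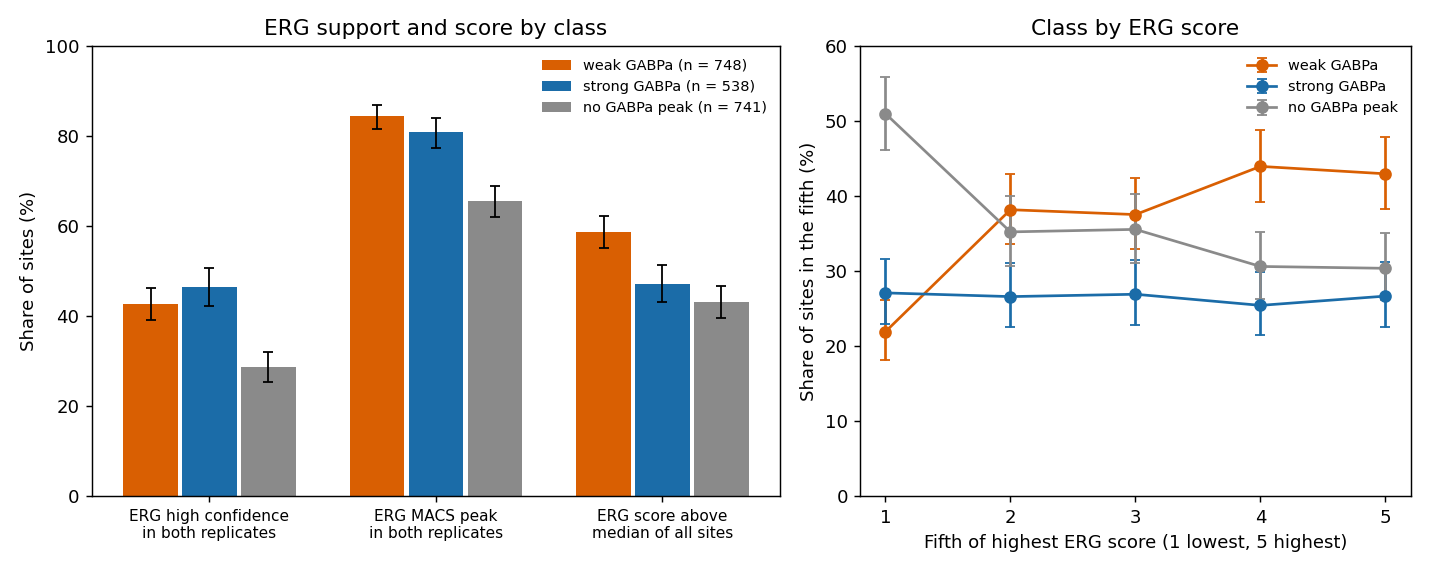
Left, share of weak, strong and GABPα-free ERG sites (%) with high confidence ERG in both replicates, with an ERG MACS peak in both, and with an ERG score above the median of all sites. Right, share of each class (%) in 5 groups of sites ordered by the higher of the replicate ERG scores. Bars and points are shares and error bars 95% Wilson intervals over sites, and the weak class goes from 21.9% to 43.0% while the strong class lies between 25.4% and 27.1%.

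Because ERG support and ERG score are related, support was also compared within 3 groups of equal size by ERG score. Between weak sites and sites without GABPα the difference was 0.14 points in the lowest group (interval −5.46 to 6.41), 9.60 in the middle (interval 1.29 to 17.7) and 10.8 in the highest (interval 2.06 to 19.5). The lowest-scoring sites thus showed no detectable difference in support. Against strong sites the corresponding differences were −2.90, −6.11 and −16.2 points, and only the last interval (−23.7 to −8.07) left out 0. In this setting, weak sites among the ERG sites of highest score were supported by both ERG replicates less often than strong sites. The 3 differences were not adjusted for their number and were not recomputed without windows of 1 Mb with 10 or more ERG sites. Over all sites, leaving out those windows changed the difference from strong sites from −3.82 to 0.26 points (interval −5.59 to 6.06).

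Within the weak class, GABPα score and ERG score were nearly unrelated. The rank correlation of the highest GABPα score with the highest ERG score was 0.08 over 748 sites, and over the 538 strong sites it was 0.07. For samples of the same number it was −0.02 in replicate 1 (n = 529 sites) and 0.14 in replicate 2 (n = 646). Crossing the numbers gave 0.06 for GABPα replicate 1 with ERG replicate 2 and −0.03 for GABPα replicate 2 with ERG replicate 1. The ERG scores of the replicates, by contrast, had a correlation of 0.44 with each other over 631 weak sites. All of these are descriptions across sites of the same libraries, and neighbouring sites can share one MACS peak and hence one score: the weak sites lay in 554 and 619 distinct GABPα peaks in replicates 1 and 2.

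**Figure D3:**
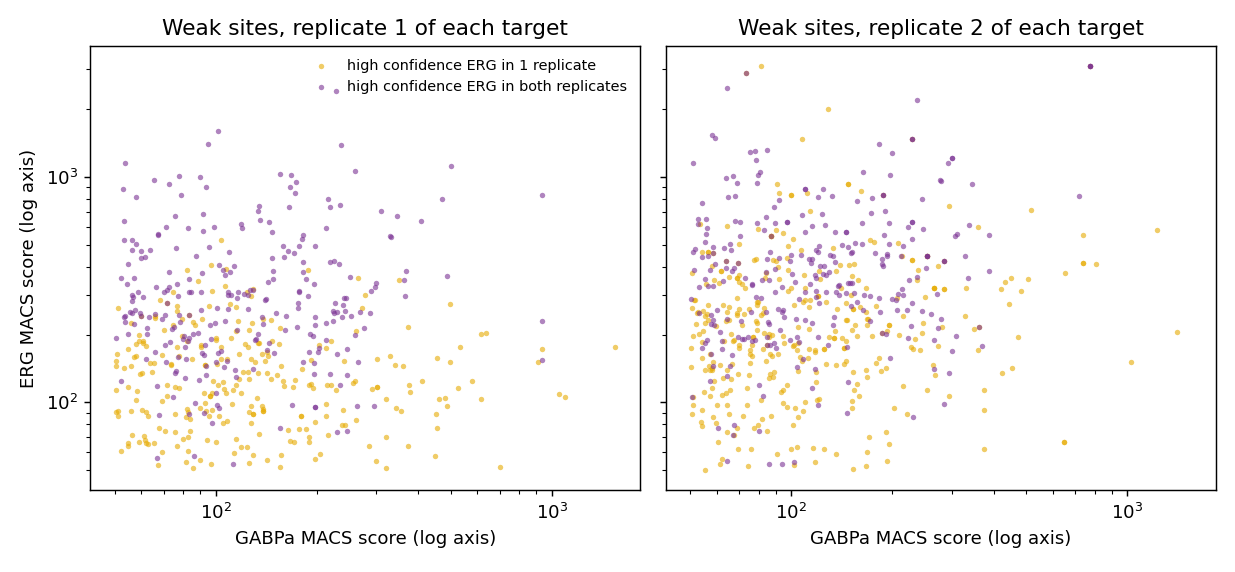
ERG MACS score against GABPα MACS score (both log axes) at weak sites, for replicate 1 of each target on the left (529 sites) and replicate 2 on the right (646 sites). Each point is a site, coloured by whether ERG was called with high confidence in 1 or in both replicates. The rank correlations were −0.02 and 0.14.

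Sorting the weak sites into 4 groups of 187 by GABPα score showed no steady change in ERG replicate 1 but a higher top group in replicate 2. The lowest group, with GABPα scores of 50.2 to 76.8, had median ERG scores of 170 and 251 in replicates 1 and 2. The highest, with GABPα scores from 195, had medians of 167 and 320. The median of the highest ERG score rose over the 4 groups, at 254, 271, 295 and 322. ERG was called with high confidence in both replicates at 40.6%, 42.2%, 39.6% and 48.1% of sites from the lowest group to the highest, and the last exceeded the first by 7.49 points with an interval of −2.56 to 17.3. GABPα was detected in both replicates at 24.6% of the lowest group and 95.7% of the highest. Part of this can follow from the grouping, which took the higher score where both replicates had a peak.

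Replicate support of ERG was also compared between weak sites with GABPα in both replicates and in a single replicate. Among the 514 weak sites with GABPα in both replicates, 231 had high confidence ERG in both (44.9%, Wilson interval 40.7 to 49.3%). Among the 234 sites with GABPα in a single replicate, 88 did (37.6%, interval 31.6 to 44.0%). The difference of 7.33 points had an interval of −0.31 to 14.7 and so narrowly included 0. Without the flanking sites it was 10.2 points (interval 2.16 to 18.0), and with SWEMBL intervals in both ERG replicates 8.93 points (interval 1.54 to 16.0), so this call depended on how the sites were built. An ERG score above the median was as frequent as 59.3% and 57.3% in the same sets, a difference of 2.07 points (interval −5.45 to 9.71).

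Weak GABPα peaks were then followed from one GABPα replicate to the other, according to whether they lay at an ERG site. This comparison was chosen after the data had been seen. It used GABPα MACS peaks that held no high confidence piece of either replicate, and the share seen again in the other sample was 58.0% for replicate 1 and 56.8% for replicate 2. Of the 491 such peaks of replicate 1 at ERG sites, 86.4% were found again, compared with 53.2% of the 10234 that overlapped no ERG peak, a difference of 33.1 points (interval 29.7 to 36.1). Of the 546 peaks of replicate 2 at ERG sites, 77.1% were found in replicate 1, compared with 52.5% of 10476, a difference of 24.6 points (interval 20.8 to 28.1). GABPα peaks that overlapped only an ERG MACS peak lay between, at 73.4% and 71.6%.

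Peaks at ERG sites also had higher scores and were longer. In replicate 1 their median score was 104 and median length 817 bp, against 74.8 and 549 bp for peaks with no ERG peak, and in replicate 2 the values were 97.5 and 753 bp against 69.2 and 501 bp. Among peaks with scores from 50 to 75, 68.7% of those at ERG sites and 31.5% of those with no ERG peak recurred for replicate 1, and 52.4% and 32.5% for replicate 2. The gap closed as the score rose, and from a score of 200 the shares were 98.8% and 99.5% for replicate 1 and 98.4% and 99.7% for replicate 2. When length was also held to between 600 and 900 bp, the difference at scores of 50 to 75 was 33.1 points for replicate 1 (interval 20.2 to 43.2) but 7.0 points for replicate 2 (interval −4.70 to 17.9). For the faintest GABPα peaks, recurrence at ERG sites thus exceeded that elsewhere in both directions, and with length held the interval left out 0 for the peaks of replicate 1 but not for those of replicate 2.

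**Figure D4:**
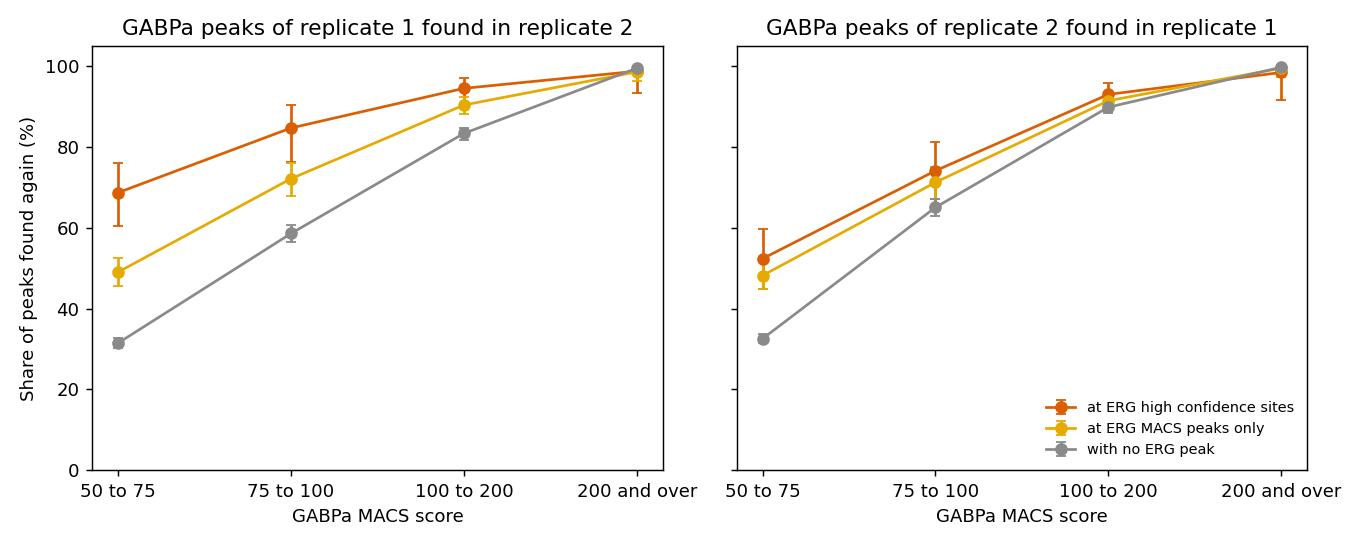
Share (%) of GABPα MACS peaks without a high confidence piece that were found again in the other replicate, by MACS score, for peaks at high confidence ERG sites, at ERG MACS peaks only and with no ERG peak. Points are shares with 95% Wilson intervals over peaks. At scores of 50 to 75 the peaks at ERG sites recurred in 68.7% (replicate 1) and 52.4% (replicate 2), those with no ERG peak in 31.5% and 32.5%, and from 200 all lay above 98%.

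The ERG sites with the highest ERG scores among weak sites supported by both ERG replicates were spread over 3 chromosomes. The leading site, chr7:16274879-16275670, had ERG scores of 2411 and 2196 and GABPα scores of 229 and 236. The next, chr2:68073865-68074421, had ERG scores of 1606 and 2473 but GABPα scores of only 101 and 64.4. At both positions MACS called a peak in the 4 Jurkat samples and in no VCaP sample. The remaining 3, chr10:38856982-38858140, chr10:38858151-38858391 and chr10:38858435-38858847, share an ERG peak of score 3103 in replicate 2 and GABPα peaks of score 934 and 772, so they count as neighbouring pieces and not as separate binding events.

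No MACS peak was called in any of the 6 VCaP samples at 606 weak sites (81.0%), which is near the 82.0% of all Jurkat ERG sites. The share was 76.2% at strong sites and 87.3% at sites without GABPα. By the rule every weak site had MACS peaks in at least 2 Jurkat samples, and the counts that follow were not compared with other classes. MACS peaks were called in 4 of the 10 samples at 377 weak sites and in 9 of 10 at 5. Of these 5 sites, 4 were pieces of the same stretch of chromosome 10, where VCaP GABPα scores were 114, 77.0 and 140 at t0, with vehicle and with R1881, and VCaP ERG scores were 878 with vehicle and 811 with R1881. The other was chr3:184114293-184114820, with Jurkat GABPα scores of 201 and 252 and Jurkat ERG scores of 167 and 395. Its VCaP GABPα score was 73.3 at t0, 357 with vehicle and 354 with R1881, and its VCaP ERG score 266 with vehicle and 348 with R1881. Each VCaP condition is 1 sample, so no difference between treatments has a replicate check.

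GABPα was seldom found at these sites in VCaP cells. With R1881, 19 weak sites (2.54%, Wilson interval 1.63 to 3.93%) had a VCaP GABPα MACS peak, against 3.60% of all Jurkat ERG sites. The share was 8.55% at strong sites and 1.08% at sites without GABPα in Jurkat cells. Weak sites differed from strong sites by −6.01 points (interval −8.83 to −3.51) and from sites without GABPα by 1.46 points (interval 0.083 to 2.95). The second difference was close to the limit and its interval included 0 when the flanking sites were counted as strong (0.92 points, interval −0.40 to 2.42). With vehicle the shares were 3.34%, 8.92% and 0.675% at weak, strong and GABPα-free sites, and at t0 2.41%, 4.09% and 0.405%. A VCaP GABPα high confidence peak was found at 0 of the 748 weak sites at t0, with vehicle and with R1881. A count of 0 there allows a share of up to 0.401%. The 741 GABPα-free sites also had 0 in each of these samples, while 10 strong sites (1.86%) had one with R1881. Over all Jurkat ERG sites the shares were 0.0987%, 0.543% and 0.493% at t0, with vehicle and with R1881.

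With vehicle and with R1881, ERG was found at weak sites more often than GABPα in VCaP cells, but mostly in a few crowded stretches. At t0 the order was reversed, with a VCaP ERG MACS peak at 5 weak sites (0.668%) and a GABPα one at 18 (2.41%). The VCaP samples also differed in their number of MACS peaks, which with R1881 was 23947 for ERG and 15013 for GABPα. With R1881, 101 weak sites (13.5%) had a VCaP ERG MACS peak, against 12.3% of all Jurkat ERG sites, 15.1% of strong sites and 9.18% of sites without GABPα. The weak sites exceeded those without GABPα by 4.33 points (interval 1.10 to 7.56), and by 3.08 points (interval −0.095 to 6.35) with classes made without GABPα replicate 2. However, 10 windows of 1 Mb held 10 or more ERG sites each, a limit set after the distribution had been seen, and together contained 251 sites, 90 of them weak. Inside these windows 64 of the 90 weak sites (71.1%) had a VCaP ERG peak with R1881, and outside them 37 of 658 (5.62%). Neighbouring sites in a window can share a VCaP peak, so these are counts of sites and not of separate peaks. Outside the windows the shares were 6.45% at strong sites and 6.13% at sites without GABPα, and the difference between weak sites and the latter turned to −0.50 points (interval −3.10 to 2.08). The excess of VCaP ERG peaks at weak sites therefore depended on these windows. High confidence VCaP ERG peaks with R1881 were at 1.74% of weak, 7.06% of strong and 0.540% of GABPα-free sites, against 2.71% of all. Weak sites differed from strong sites by −5.33 points (interval −7.91 to −3.09), and with vehicle by −4.59 points (interval −7.54 to −1.90). These high confidence shares were not split by window.

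**Figure D5:**
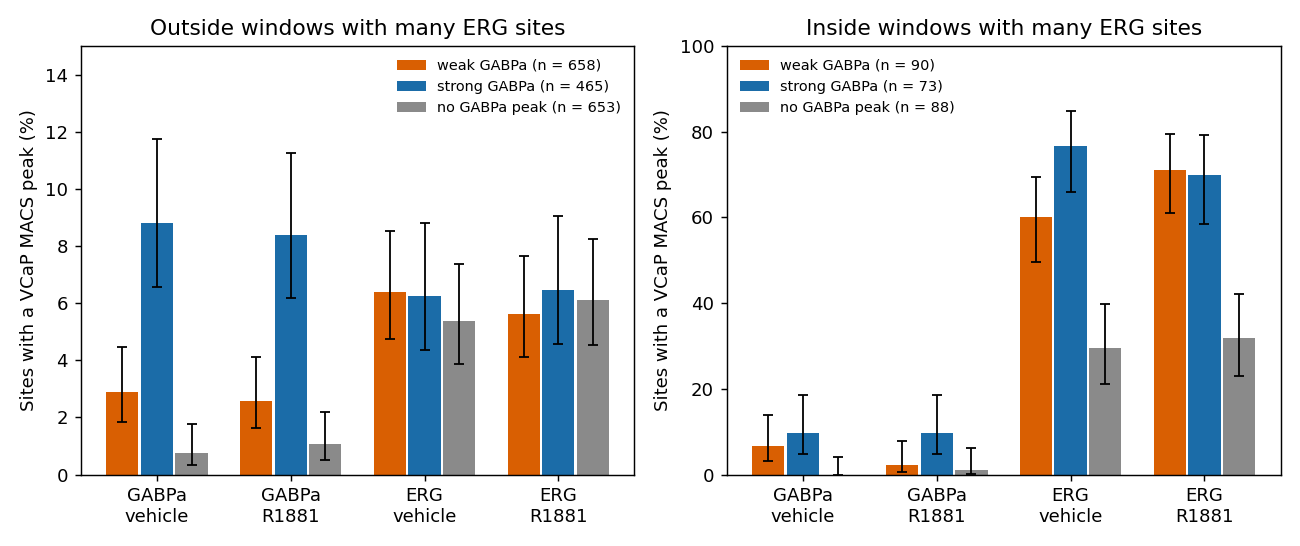
Share (%) of weak, strong and GABPα-free Jurkat ERG sites with a MACS peak in VCaP samples given vehicle or R1881, outside (left) and inside (right, other scale) the 10 windows of 1 Mb with 10 or more ERG sites. Bars are shares with 95% Wilson intervals over sites, from 1 sample per condition, and neighbouring sites can share a VCaP peak. VCaP ERG peaks with R1881 were found at 5.62% of weak sites outside the windows and 71.1% inside.

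The crowded windows were not particular to the weak class, as 12.0% of weak, 13.6% of strong and 11.9% of GABPα-free sites lay in them. The fullest were at chr16:44000001-45000000 with 75 sites, of which 21 were weak and 39 strong, and at chr10:41000001-42000000 with 45 sites, of which 17 were weak. The window chr4:48000001-49000000 held 16 weak sites among 26 and 1 strong site, whereas chr2:90000001-91000000 held 11 weak and 15 strong sites among 27. Leaving the windows out gave 658 weak sites, or 37.0% of those left, and an excess of support by both ERG replicates over sites without GABPα of 13.5 points (interval 8.33 to 18.5).

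The weak share varied between chromosomes from 19.4% on chromosome 19 (6 of 31 sites, Wilson interval 9.19 to 36.3%) to 55.0% on chromosome 15 (33 of 60, interval 42.5 to 66.9%), leaving out unplaced sequence. Chromosome 17 was also low, at 20.6% (13 of 63, interval 12.5 to 32.2%), and chromosome 3 high, at 46.8% (59 of 126, interval 38.3 to 55.5%). Apart from these 4 chromosomes and chromosome Y, at 21.4% (9 of 42, interval 11.7 to 35.9%), every interval included the 36.9% of all sites. A GABPα high confidence interval lay within 10000 bp of 241 weak sites (32.2%, interval 29.0 to 35.7%) and of 140 GABPα-free sites (18.9%, interval 16.2 to 21.9%). The classes were chosen on GABPα calls and the flanking sites lie close to such an interval by construction, and without them the weak share was 21.9% (142 of 649, interval 18.9 to 25.2%).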

How the data were processed

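The authors aligned short single-end reads to hg18 with BWA version 0.5.5, removed alignments of low quality and called peaks against input with MACS and SWEMBL. The deposited MACS score of each peak is −10 times the log10 of its p-value. Peaks found by both callers were deposited as high confidence sets, with a score for 7 samples and without one for ERG replicate 1 in Jurkat cells and ERG at t0 and with vehicle in VCaP cells. These 3 files hold mostly whole MACS peaks and the others SWEMBL intervals. The files give no read numbers, so depth and its effect on precision are unknown, and scores were not normalised between samples. The 6 input samples had no file used here.

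Intervals were merged and compared in Python 3.11.15 (numpy 2.4.6, scipy 1.17.1) at an overlap of at least 1 bp, and the code was tested on simulated data, with overlaps counted by bedtools 2.31.1 for comparison. A site took the highest score among the MACS peaks it overlapped. Shares have 95% Wilson intervals and differences of shares 95% Newcombe intervals over sites, and a difference was called when its interval left out 0. An upper limit for 0 sites is 3 divided by the number of sites. No p-value was computed, and no test between cultures was run. The members and lists were chosen with earlier results of these data known.

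Sites were named by a rule: the 5 highest GABPα scores, the 5 highest mean ERG scores among sites supported by both ERG replicates, the lowest score in each class, and the 5 sites with peaks in most samples. Sites on chromosome 8 were counted but not named. Alternatives were a minimum GABPα score of 100, an overlap of 50% of the shorter interval, whole ERG MACS peaks, other placing of the flanking sites, other VCaP samples and call sets, single replicates, and, added after seeing the data, SWEMBL intervals in both ERG replicates, no crowded windows and limits on peak length. No hg18 sequence or annotation was used, so sites are given by position without genes or motifs.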

Additional observations from a re-analysis of the deposited data

Results flagged for a closer look

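SWEMBL intervals were also deposited on their own. Those that overlap a MACS peak make up the GABPα high confidence sets, and the other 2487 of 10775 in replicate 1 and 2059 of 11828 in replicate 2 entered no class. Of the 741 ERG sites without a GABPα MACS peak, 13 overlapped such a SWEMBL interval in replicate 1 and 40 in replicate 2, and 12 did in both. These 1.75% and 5.40% of sites are listed because they come from calls that the classes do not use and exceed the 3 sites that a count of 0 allows, and they were not compared with the overlap expected by chance. Outside the crowded windows the counts were 10 and 24 of 653 sites. At weak sites such an interval was found at 1 site in replicate 1 and at 0 in replicate 2, and at strong sites at 26 and 4. The low count at weak sites largely follows from the rule. Of the 748 weak sites, 723 lie wholly inside a GABPα MACS peak. A SWEMBL interval of the same replicate there would count as high confidence and make the site strong.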

How the results depend on the processing

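Of 121 recalculations of 13 results, 100 were labelled unchanged. Differences had to stay on the same side of the threshold, and counts within 1.5 times the main count. The direction could still change: for support by both ERG replicates, the difference from strong sites was −3.82 points in the main setting. It turned positive without GABPα replicate 2, without the crowded windows and with MACS peaks of any confidence, and each interval included 0. The weak share and the rank correlation had no interval here. The correlation ran from 0.05 to 0.11, with an SD of 0.11 between pairs of equal replicate number. The excess of weak sites over GABPα-free sites in ERG support and in ERG score kept its call under every alternative except within the lowest-scoring ERG sites (0.14 points). The number of weak sites was 441 and their share 21.8% with a GABPα score of at least 100, and with 1 replicate left out at a time the number ranged from 454 to 736. For support by both ERG replicates, the difference from strong sites was called with 50% overlap (−5.83 points) and among the ERG sites of highest score (−16.2), and the excess of weak sites over strong sites in ERG score was not called with ERG replicate 1 alone (0.61). For VCaP GABPα, the excess over GABPα-free sites was not called with 50% overlap (1.14), with flanking sites counted as strong (0.92) or with high confidence peaks (0), and the deficit against strong sites was not called at t0 (−1.68). For VCaP ERG, it was not called with whole MACS peaks (2.17) or flanking sites counted as strong (1.61), ranged from 3.08 to 4.28 with a GABPα replicate left out, and turned to −0.50 without the crowded windows. The difference in ERG support between sites with GABPα in 2 replicates and in 1 was called with whole MACS peaks (8.79), without flanking sites (10.2), with SWEMBL intervals in both ERG replicates (8.93) and without the crowded windows (8.36). For GABPα peaks of replicate 2, the excess in recurrence was not called from a score of 100 (3.08) or at 600 to 900 bp with scores of 50 to 75 (7.0). The causes were not tested. The labels give the targets the same replicate numbers but no shared culture, so the numbers were not taken as pairs. Pairing samples by number as a replicate block and averaging gave 535.5 weak sites (37.9%) and a rank correlation of 0.06. Depth is unknown, so a missing GABPα peak means that none was called. Each VCaP condition is 1 sample.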
